A study of Homo sapiens with 6 samples.

Results

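The genes described here are 33 genes of cholesterol and fatty acid synthesis, chosen by symbol from the count tables of HT-1080 cells, which list 20683 gene symbols. HT-1080 is a human fibrosarcoma line. The cells had been exposed for 4 h to SLV-8472-01, which the series calls an inhibitor of IRAK4, a kinase that relays signals of Toll-like and interleukin-1 receptors, at a labelled 5 mM, or to 0.1% DMSO, with 3 libraries in each group. No DMSO percentage was found for the inhibitor libraries, so a difference in vehicle cannot be told apart from the compound. The label leaves unsaid whether 5 mM was the concentration in the medium, and the structure of the compound is not given in the labels. The series design calls the libraries biological replicates but does not say whether they were separate cultures on separate days, so the p-values measure the spread between these libraries. All cells were grown in medium with 10% serum, a source of lipoprotein cholesterol for both groups. The 33 symbols fall by role into 7 genes of the mevalonate steps, 12 of the sterol steps, 7 regulators and transport proteins, and 7 fatty acid enzymes. Every one of them passed the filter on low counts and was tested.

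Cholesterol is built in the endoplasmic reticulum from acetyl-CoA, by way of mevalonate, farnesyl diphosphate, squalene and lanosterol. The genes of both pathways are switched on by SREBP transcription factors, which SCAP escorts out of the endoplasmic reticulum when sterols are low and which INSIG proteins hold back when sterols are high. INSIG1 is itself an SREBP target, so that the pathway carries its own brake, whereas INSIG2 is known to respond little to sterols. Fatty acid synthesis starts from the same acetyl-CoA and shares the SREBP control in part.

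Library totals were 7644478 to 11427779 counts in the inhibitor group and 12003104 to 15336351 in the DMSO group, without overlap. The deposited values are raw read counts. The values below are counts scaled to 1000000 per library (CPM) after TMM scaling, a correction for library composition. Each count comes from an amplified part of a transcript, and amplicons can differ in efficiency, so levels are compared between groups within a gene and not between genes. Inhibitor replicate 3, the smallest library, stood apart from the other inhibitor libraries on the second principal component, at -23.6 against 13.2 and 9.97. Mesenchymal markers were present, with 9 of 10 above a mean of 10 CPM and a summed level of 10160 to 12380 CPM in inhibitor libraries and 9317 to 10280 CPM in DMSO libraries. The summed level of 7 epithelial markers was at most 1.47 CPM with the inhibitor and 2.16 CPM with DMSO, and those of 7 hepatocyte, 6 leukocyte and 5 adipocyte markers were at most 1.09 and 1.27 CPM. In bulk RNA, fewer cells that express a gene and less of its RNA in each cell cannot be told apart.

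After 4 h with the inhibitor, 6 of the 33 genes rose and 1 fell. INSIG1 and INSIG2, which encode the proteins that retain SREBPs, rose the most, followed by MSMO1, an enzyme of the sterol steps, and then by SCD, SCAP and HMGCS1, while TMEM97 fell. Of the changed genes, 4 of 7 were regulators or transport proteins, and the enzyme groups had 1 changed gene each. The number of changed regulators and transport genes was 2 if either inhibitor replicate 1 or DMSO replicate 2 was left out. The share of members called, 21.2%, was close to that of all 11391 genes tested, of which 20.2% were called (edgeR quasi-likelihood test, Benjamini-Hochberg adjusted p under 0.05, the rule for rose and fell throughout). Over all tested genes 1130 rose (9.92%) and 1168 fell (10.3%), and with library totals as the only scaling 831 rose and 1714 fell. Without DMSO replicate 2, 684 rose and 721 fell over all genes, and of the members 4 rose and 0 fell. No member changed by as much as a log2 fold change of 1, and the largest fold was 1.73. In 12 of the 33 members the normalised counts of the groups did not overlap, 10 with the inhibitor libraries above and 2 with them below. Among all tested genes 36.3% did not overlap, 17.7% with the inhibitor above and 18.7% with it below.

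**Figure D1:**
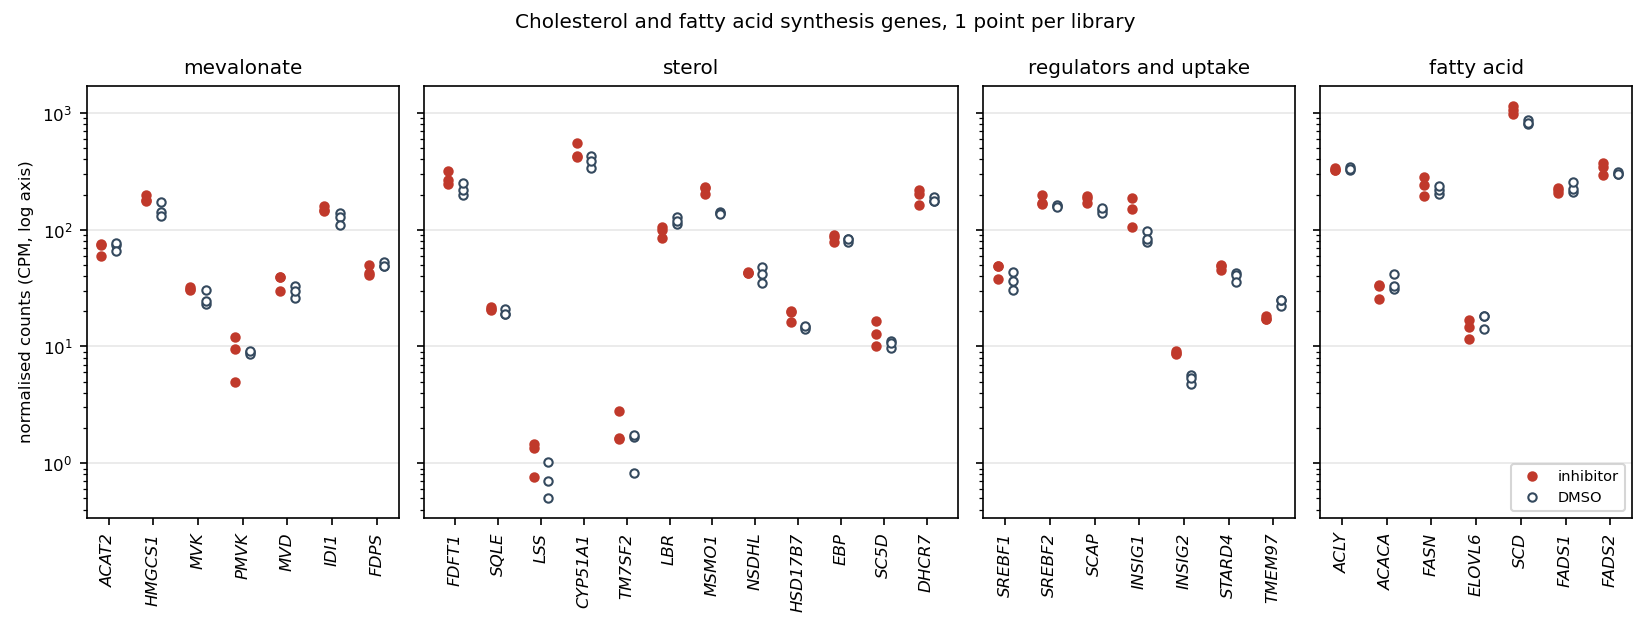
Normalised counts (CPM, log axis) of the 33 genes in the 3 inhibitor libraries (filled) and the 3 DMSO libraries (open), by role. The groups overlap for 21 genes and are apart for the others, among them INSIG1, INSIG2 and MSMO1.

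INSIG1 had 187, 151 and 106 CPM in inhibitor replicates 1, 2 and 3, and 96.6, 77.8 and 82.6 CPM in the DMSO libraries. The groups did not overlap, but inhibitor replicate 3 lay closer to the DMSO libraries than to inhibitor replicate 1. The means were 148 ± 41.0 CPM with the inhibitor and 85.7 ± 9.78 CPM with DMSO (SD, n = 3 each), a log2 fold change of 0.79 ± 0.15 (SE; edgeR adjusted p = 0.000559). That difference ranked 367th from the top among the 11391 genes. Leaving out 1 library at a time moved it between 0.58, without inhibitor replicate 1, and 0.98, without inhibitor replicate 3, and kept the call each time.

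INSIG2 was at a lower count, with 8.79, 9.14 and 8.58 CPM in the inhibitor libraries and 5.67, 4.78 and 5.32 CPM in the DMSO libraries. Its libraries lay close together within each group, in contrast to the spread of INSIG1 with the inhibitor. It rested on 64 to 98 counts per library, however, and its SE was larger than the 0.15 of INSIG1. The closeness of its values therefore does not make its difference the better measured. The means of 8.83 ± 0.28 CPM and 5.25 ± 0.45 CPM (SD, n = 3 each) gave a log2 fold change of 0.75 ± 0.17 (SE; edgeR adjusted p = 0.00373), ranked 408th. SCAP had 194, 169 and 188 CPM with the inhibitor and 147, 138 and 152 CPM with DMSO, and its log2 fold change was 0.33 ± 0.10 (edgeR adjusted p = 0.0225). The SCAP groups did not overlap, yet the call was lost without inhibitor replicate 1 (edgeR adjusted p = 0.0749), without DMSO replicate 1 (0.0558) or without DMSO replicate 2 (0.12), and with library totals as the only scaling (0.0655).

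The transcription factor genes themselves were not called. SREBF2, whose product acts mainly on cholesterol genes, had 199.6, 169 and 167 CPM with the inhibitor and 158, 161 and 155 CPM with DMSO. Every inhibitor library was above every DMSO library, by a log2 fold change of 0.17 ± 0.10 (edgeR adjusted p = 0.249). SREBF1, whose products act more on fatty acid genes, had 49.1, 49.1 and 37.8 CPM with the inhibitor against 36.2, 30.6 and 43.8 CPM with DMSO, and the groups overlapped (0.31 ± 0.13, edgeR adjusted p = 0.113). SREBF1 would pass the threshold without inhibitor replicate 3 (edgeR adjusted p = 0.0304) or without DMSO replicate 3 (0.0411), but not without any of the others, and its log2 fold change was 0.18 without DMSO replicate 2 (0.458). The deposited counts are per gene symbol, so the SREBF1 isoforms are not separated.

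STARD4, a carrier that moves sterols between membranes, had 49.1, 45.6 and 49.98 CPM with the inhibitor and 42.1, 40.7 and 35.6 CPM with DMSO. The groups were apart, but the log2 fold change of 0.29 ± 0.11 was not called (edgeR adjusted p = 0.0741). TMEM97, an endoplasmic reticulum protein that binds the lysosomal cholesterol exporter NPC1 and is known as the sigma-2 receptor, was the member that fell. It had 17.3, 18.4 and 17.2 CPM with the inhibitor and 22.02, 25.1 and 24.9 CPM with DMSO, a log2 fold change of -0.44 ± 0.13 (edgeR adjusted p = 0.0159). All 3 inhibitor libraries lay below all 3 DMSO libraries, but the call was lost without inhibitor replicate 1 (edgeR adjusted p = 0.0504) or DMSO replicate 2 (0.07).

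**Figure D2:**
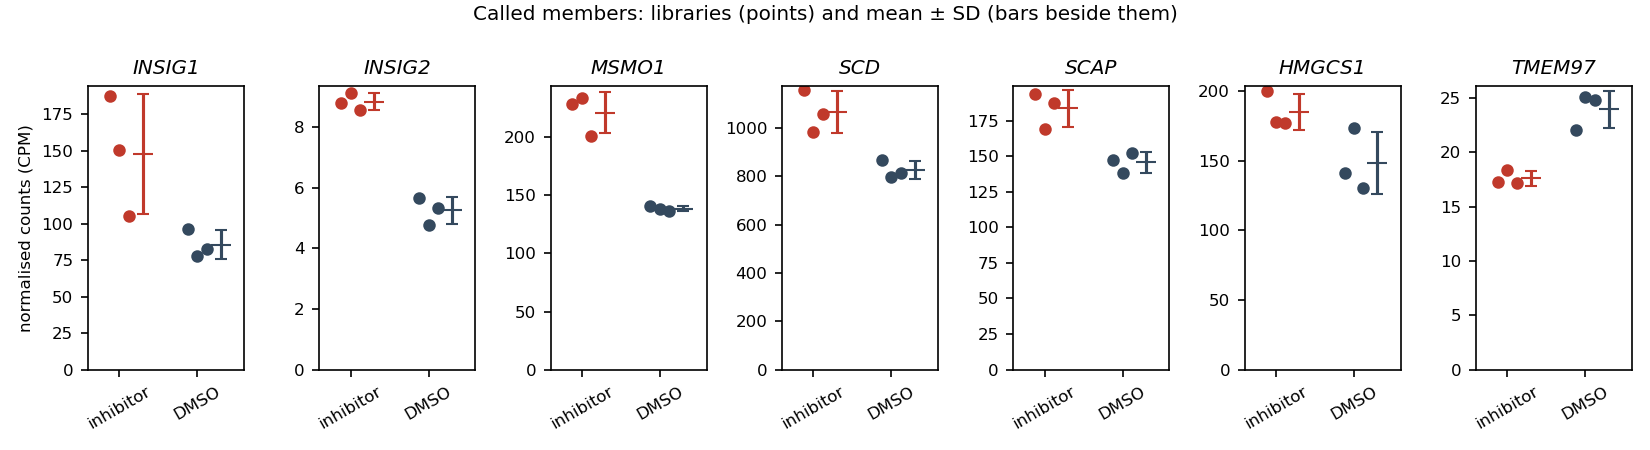
Normalised counts (CPM, linear axes from 0) of the 7 members that changed, with a point per library and the mean ± SD of 3 libraries beside them, inhibitor left and DMSO right. The inhibitor libraries of INSIG1 run from 106 to 187 CPM, and TMEM97 is the gene with lower values in the inhibitor group.

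Among the 7 mevalonate genes, 1 rose and 0 fell, with edgeR as with DESeq2, and at an unadjusted p under 0.05 there were 4 upward and 0 downward. Counts at an unadjusted p under 0.05, here and for the other roles, stand beside 33.4% of all tested genes in either direction. HMGCS1, which makes HMG-CoA, the substrate of the reductase step, had 200.1, 178 and 177 CPM with the inhibitor and 141, 173 and 131 CPM with DMSO. DMSO replicate 2 came within a few CPM of the lowest inhibitor libraries, and the log2 fold change of 0.32 ± 0.11 passed narrowly (edgeR adjusted p = 0.0481). It no longer passed without inhibitor replicate 1 (edgeR adjusted p = 0.165), inhibitor replicate 2 (0.0794), DMSO replicate 1 (0.146) or DMSO replicate 3 (0.219), and with library totals as the only scaling (0.131). IDI1, the isomerase that makes the allylic isoprenoid building block, had 160.3, 149 and 145 CPM with the inhibitor and 138, 128 and 109 CPM with DMSO. Its groups did not overlap, and its log2 fold change of 0.27 ± 0.11 was not called (edgeR adjusted p = 0.0763).

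MVK, the kinase that phosphorylates mevalonate, had 32.1, 31.1 and 30.3 CPM with the inhibitor and 22.9, 24.4 and 30.6 CPM with DMSO (log2 fold change 0.27 ± 0.13, edgeR adjusted p = 0.136). Here DMSO replicate 3 lay among the inhibitor libraries, and without it MVK would pass the threshold (edgeR adjusted p = 0.0474). MVD, the decarboxylase that turns the mevalonate phosphates into isopentenyl diphosphate, had 39.1, 29.9 and 39.4 CPM with the inhibitor against 25.9, 33.1 and 30.004 CPM with DMSO, with overlap (0.28 ± 0.13, edgeR adjusted p = 0.13). PMVK, the kinase that acts between them, had 9.59, 12.1 and 4.96 CPM with the inhibitor and 9.04, 8.65 and 9.23 CPM with DMSO, so that its inhibitor libraries spread to both sides of the DMSO libraries. ACAT2, a thiolase that makes acetoacetyl-CoA, and FDPS, farnesyl diphosphate synthase, had log2 fold changes of -0.062 ± 0.11 and -0.17 ± 0.11 and overlapping groups (edgeR adjusted p = 0.747 and 0.295). The median log2 fold change of the 7 genes was 0.27, beside 0.0034 for all tested genes.

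Of the 12 sterol genes, 1 rose and 0 fell, although 11 had a log2 fold change above 0. Their edgeR count at an unadjusted p under 0.05 was 5 upward and 1 downward, DESeq2 called 1 upward and 1 downward, and without inhibitor replicate 1 edgeR called 4. MSMO1, the oxidase that starts the later of the methyl removals from the sterol ring, after that by CYP51A1, had 229, 234 and 201 CPM with the inhibitor and 140.5, 138 and 136 CPM with DMSO. All inhibitor libraries were well above the DMSO libraries, which lay within a few CPM of each other. Its means were 221 ± 17.7 CPM with the inhibitor and 138 ± 2.10 CPM with DMSO (SD, n = 3 each), a log2 fold change of 0.68 ± 0.10 (SE; edgeR adjusted p = 5.08e-05). MSMO1 had the smallest p of the 33 genes and kept its call in each alternative run, with log2 fold changes from 0.61 to 0.74.

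The enzymes that work near MSMO1 did not reach its difference. NSDHL, the decarboxylase of the same methyl removal, had 42.8, 42.9 and 43.8 CPM with the inhibitor and 48.2, 41.3 and 35.2 CPM with DMSO (log2 fold change 0.049 ± 0.12, edgeR adjusted p = 0.812). HSD17B7, the ketone reductase that completes it, had 16.1, 20.02 and 19.8 CPM with the inhibitor and 14.6, 14.01 and 14.9 CPM with DMSO. The HSD17B7 groups were apart but the difference, 0.35 ± 0.14 on the log2 scale, was not called (edgeR adjusted p = 0.0733). CYP51A1, which removes an earlier methyl group from lanosterol, had 427, 417 and 558 CPM with the inhibitor and 431, 341 and 389 CPM with DMSO, with its highest value in inhibitor replicate 3 and with overlap (0.27 ± 0.12, edgeR adjusted p = 0.11). The reductases TM7SF2 and LBR, which act between CYP51A1 and MSMO1, are given below.

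FDFT1, squalene synthase, the step that commits farnesyl diphosphate to sterols, had 246, 268 and 318 CPM with the inhibitor and 199.4, 218 and 252 CPM with DMSO. The ranges overlapped only through inhibitor replicate 1 and DMSO replicate 3, and the log2 fold change of 0.31 ± 0.11 lay just over the threshold (edgeR adjusted p = 0.0554). FDFT1 was called in 5 of 13 alternatives. SQLE, squalene epoxidase, a rate-limiting enzyme of this part of the pathway, had 21.9, 21.1 and 20.5 CPM with the inhibitor and 18.8, 20.9 and 18.95 CPM with DMSO (0.12 ± 0.13, edgeR adjusted p = 0.556). LSS, which closes the sterol rings, rested on few reads, with 15, 7 and 11 counts in the inhibitor libraries and 11, 16 and 6 in the DMSO libraries, and its log2 fold change of 0.64 ± 0.42 was not called (edgeR adjusted p = 0.309). TM7SF2, one of a pair of reductases of the same double bond, was also low, at 2.78, 1.63 and 1.61 CPM with the inhibitor and 0.83, 1.68 and 1.75 CPM with DMSO (edgeR adjusted p = 0.277).

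LBR, the other reductase of that pair and also a lamin B receptor of the inner nuclear membrane, was the sterol gene with a negative difference. It had 106, 99.9 and 85.6 CPM with the inhibitor and 128, 112 and 119 CPM with DMSO, without overlap, and its log2 fold change of -0.30 ± 0.11 lay just over the threshold (edgeR adjusted p = 0.0508). LBR was called downward in 6 of 13 alternatives, among them DESeq2 (adjusted p = 0.049). The enzymes of the last steps, EBP, SC5D and DHCR7, had log2 fold changes of 0.054 ± 0.10, 0.35 ± 0.17 and 0.12 ± 0.11 and overlapping groups (edgeR adjusted p = 0.755, 0.149 and 0.487). SC5D, the desaturase among them, had 16.5, 12.8 and 10.2 CPM with the inhibitor and 9.74, 11.04 and 10.7 CPM with DMSO, and its log2 fold change was 0.49 without inhibitor replicate 3, past the threshold (edgeR adjusted p = 0.0389), and 0.14 without inhibitor replicate 1 (0.639). The median log2 fold change of the sterol genes was 0.29, and with 1 library left out it lay between 0.18, without inhibitor replicate 1, and 0.32.

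**Figure D3:**
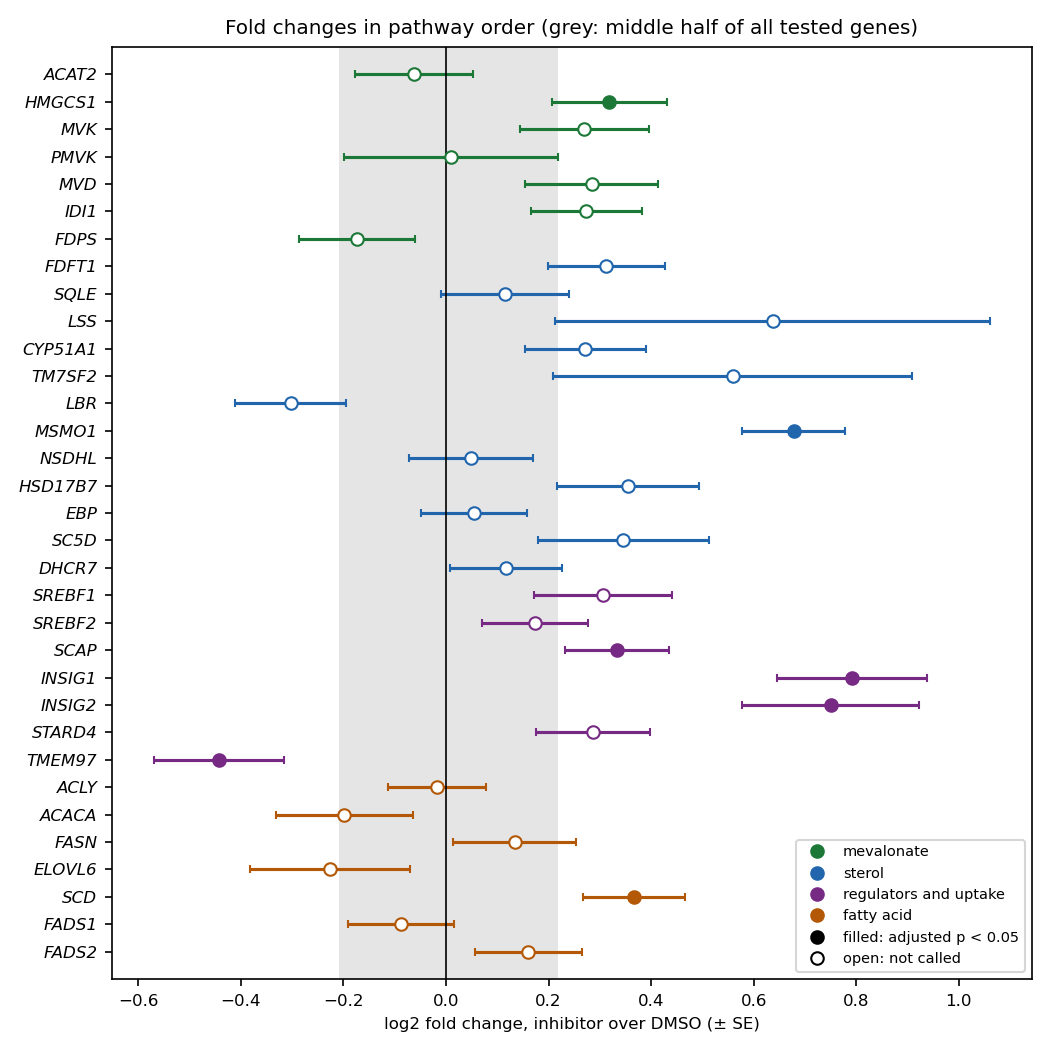
log2 fold change (inhibitor over DMSO, ± SE) of the 33 genes in pathway order from top to bottom, coloured by role, with filled points for adjusted p under 0.05. The grey band holds the middle 50% of all tested genes, from -0.21 to 0.22, and the filled points are HMGCS1, MSMO1, SCAP, INSIG1, INSIG2, TMEM97 and SCD.

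Of the 7 fatty acid enzymes, 1 rose and 0 fell, with edgeR as with DESeq2, and the same numbers had an unadjusted p under 0.05. SCD, the desaturase that turns saturated into monounsaturated fatty acids, had 1154, 981 and 1058 CPM with the inhibitor and 866, 797 and 814 CPM with DMSO. The groups did not overlap, and the means of 1064 ± 87.0 CPM and 825 ± 36.1 CPM (SD, n = 3 each) gave a log2 fold change of 0.37 ± 0.10 (SE; edgeR adjusted p = 0.0117). The call was lost without DMSO replicate 2 (edgeR adjusted p = 0.0688). ACLY, which makes cytosolic acetyl-CoA from citrate, had 339, 327 and 323 CPM with the inhibitor and 344, 324 and 333 CPM with DMSO, a log2 fold change of -0.018 ± 0.096 (edgeR adjusted p = 0.917). Its values were interleaved, and its SE was the smallest of the 33 genes.

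FASN, the synthase that makes palmitate, had 283, 195 and 242 CPM with the inhibitor and 202, 219.5 and 235 CPM with DMSO, so that inhibitor replicates 1 and 2 lay on opposite sides of the DMSO libraries (log2 fold change 0.13 ± 0.12, edgeR adjusted p = 0.463). ACACA, the carboxylase that makes malonyl-CoA, had 32.9, 33.4 and 25.3 CPM with the inhibitor and 31.0, 41.3 and 33.2 CPM with DMSO (-0.20 ± 0.13, edgeR adjusted p = 0.315). ELOVL6, which elongates palmitate, had 16.9, 14.6 and 11.5 CPM with the inhibitor and 18.3, 18.2 and 14.1 CPM with DMSO (-0.23 ± 0.16, edgeR adjusted p = 0.327). The groups of these 3 genes overlapped. FADS1 and FADS2, desaturases of polyunsaturated fatty acids, had log2 fold changes of -0.088 ± 0.10 and 0.16 ± 0.10 (edgeR adjusted p = 0.592 and 0.295). The 7 genes had a median log2 fold change of -0.018, with 3 above 0 and 4 below, and the median lay between -0.044, without DMSO replicate 2, and 0.0019, without DMSO replicate 1.

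Counting directions alone, 25 of the 33 log2 fold changes (75.8%) were above 0, against 50.4% of all tested genes, and their median was 0.27 against 0.0034. With library totals as the only scaling, which set the median of all genes at -0.068, 22 were above 0 and the median of the 33 genes was 0.20. With 1 library left out the median was between 0.14, without inhibitor replicate 1, and 0.26, without inhibitor replicate 2, and in libraries thinned to equal totals it was 0.17. Of the genes that missed the threshold, 5 had an adjusted p from 0.05 to 0.1. These were LBR, FDFT1, HSD17B7, STARD4 and IDI1. At an unadjusted p under 0.05 there were 17 members (51.5%), and 33.4% of all tested genes. The median coefficient of variation of the 33 genes was 10.8% among inhibitor libraries and 8.3% among DMSO libraries, and that of all tested genes was 11.4% and 9.47%. The summed level of the regulator and transport genes was 705, 611 and 573 CPM in the inhibitor libraries and 508, 478 and 499 CPM in the DMSO libraries, INSIG1 included. On this TMM scaling the sums of the other roles did not overlap between groups either. The sums were not computed with library totals as the only scaling, nor for other sets of genes, so their separation has no background share beside it. With the inhibitor and with DMSO they were 512 to 542 and 424 to 498 CPM for the mevalonate genes and 1399 to 1501 and 1166 to 1250 CPM for the sterol genes. For the fatty acid enzymes they were 2105 to 2428 and 1936 to 1987 CPM. A sum follows its most abundant genes, such as SCD among the fatty acid enzymes. SCD alone gave 1154, 981 and 1058 CPM of that sum with the inhibitor and 866, 797 and 814 CPM with DMSO. The groups of the other 6 fatty acid enzymes overlapped gene by gene. The members were chosen as a pathway with results of these data known, so these counts and medians are a description, and no test of the list was made.

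**Figure D4:**
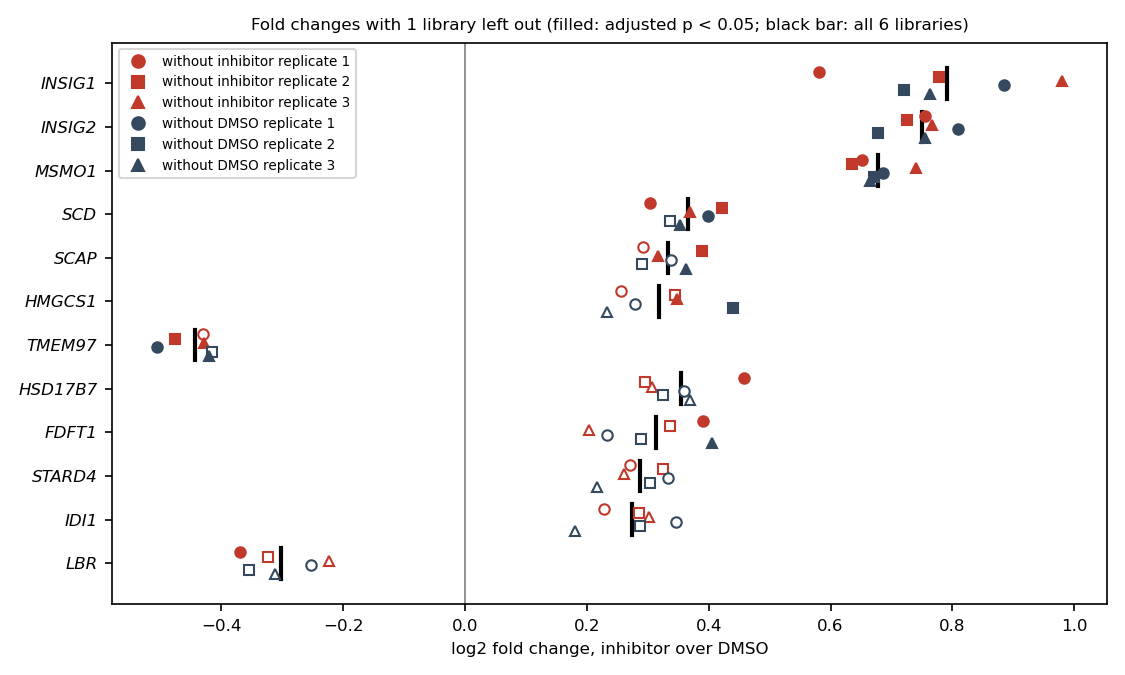
log2 fold changes of the 7 called members and of the 5 with an adjusted p from 0.05 to 0.1, each with 1 of the 6 libraries left out (symbols; filled where the adjusted p was under 0.05) and with all 6 (black bar). INSIG1, INSIG2 and MSMO1 stay filled throughout, and SCAP, HMGCS1, TMEM97 and SCD have open symbols.

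Promoter sequences of 4 of the 6 members that rose are shown, both INSIG genes and the called genes of the mevalonate and sterol steps, to set the calls beside what lies upstream of each gene. RefSeq promoters (GRCh38.p14) were found for 29 of the 33 genes, and not for ACAT2, FDFT1, SQLE and FASN. The 250 bases before the transcription start were searched on both strands for CCAAT, the box bound by NF-Y, a factor that works together with SREBPs, for GGGCGG, a site form of Sp1, and for TCACNCCAC, a form of the sterol regulatory element. None of these motifs contains another. The sequences below run 5′ to 3′ along each gene, with CCAAT or its complement ATTGG in capitals, and where RefSeq lists several starts the one that the table gives first is shown.
INSIG1: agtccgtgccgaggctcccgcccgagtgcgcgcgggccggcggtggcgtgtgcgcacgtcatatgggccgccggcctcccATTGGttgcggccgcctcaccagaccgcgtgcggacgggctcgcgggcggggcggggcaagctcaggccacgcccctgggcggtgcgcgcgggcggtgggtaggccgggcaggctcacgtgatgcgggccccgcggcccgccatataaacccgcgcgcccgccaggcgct
MSMO1: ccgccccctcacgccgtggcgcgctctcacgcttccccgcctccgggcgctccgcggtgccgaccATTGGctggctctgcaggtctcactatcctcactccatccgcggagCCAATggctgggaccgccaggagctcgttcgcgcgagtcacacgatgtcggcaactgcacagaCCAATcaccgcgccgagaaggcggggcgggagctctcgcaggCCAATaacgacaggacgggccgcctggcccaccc
HMGCS1: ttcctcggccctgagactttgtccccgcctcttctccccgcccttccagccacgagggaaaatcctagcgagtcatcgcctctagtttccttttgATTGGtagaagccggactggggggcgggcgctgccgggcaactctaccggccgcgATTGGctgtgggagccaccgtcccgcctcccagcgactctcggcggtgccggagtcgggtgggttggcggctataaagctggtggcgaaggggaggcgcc
INSIG2: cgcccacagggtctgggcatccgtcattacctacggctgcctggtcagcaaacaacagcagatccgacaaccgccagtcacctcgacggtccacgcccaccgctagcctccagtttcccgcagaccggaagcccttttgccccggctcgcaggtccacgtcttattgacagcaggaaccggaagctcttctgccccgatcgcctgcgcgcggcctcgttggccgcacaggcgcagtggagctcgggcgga
They lie at chr7:155297628-155297877 on the plus strand for INSIG1, chr4:165327419-165327668 on the plus strand for MSMO1, chr5:43313413-43313662 on the minus strand for HMGCS1 and chr2:118088221-118088470 on the plus strand for INSIG2.

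The box was present 4 times in the MSMO1 window, 2 times in those of HMGCS1 and SCD and 1 time in that of INSIG1, and did not occur in those of INSIG2 or SCAP, which rose as well. TMEM97, which fell, had 3. Among the 29 genes 20 (69.0%) held CCAAT in a window, beside 37.0% of the 27305 genes in the table. GGGCGG was in 27 of the 29 (93.1%), beside 46.2% of all genes, and TCACNCCAC in 1 of them, SREBF2, beside 1.09% of all genes. All members were expressed, whereas the table was not restricted to the 11391 tested genes, and the shares among those were not computed. The differences therefore cannot be read as a trait of this pathway as against other expressed genes. A match is a string in a window of reference sequence and not a measured site, and a missing one says only that these letters are not in that window.

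The other genes of lipid metabolism were read from 6 lists chosen for this purpose. Their counts stand beside the 9.92% of all tested genes that rose and the 10.3% that fell. Those at an unadjusted p under 0.05 stand beside 33.4% of all tested genes in either direction. Of 15 tested genes of cholesterol export, esters and transport, 4 rose and 0 fell (edgeR and DESeq2), and at an unadjusted p under 0.05 there were 5 upward and 1 downward. VLDLR, a lipoprotein receptor, had 54.2, 50.8 and 34.6 CPM with the inhibitor and 25.8, 31.7 and 29.4 CPM with DMSO, with inhibitor replicate 3 nearest to the DMSO libraries as for INSIG1 (log2 fold change 0.69 ± 0.14, edgeR adjusted p = 0.00135). GRAMD1B and GRAMD1A, which carry cholesterol from the plasma membrane to the endoplasmic reticulum, rose by 0.64 ± 0.11 and 0.64 ± 0.12 on the log2 scale (edgeR adjusted p = 0.00021 and 0.00089). NPC1, which exports cholesterol from lysosomes and is the partner of TMEM97, had 252, 244 and 226 CPM with the inhibitor and 179, 165 and 191 CPM with DMSO, without overlap (0.43 ± 0.10, edgeR adjusted p = 0.00423). Each of these 4 calls was kept with any 1 library left out. The median of the list was 0.058.

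The prenylation enzymes use the farnesyl and geranylgeranyl products of the mevalonate steps. Of the 12 genes of isoprenoid branches, which include them, 1 rose and 1 fell, or 16.7% called beside 20.2% of all tested genes. Of the prenylation subunits, FNTA, PGGT1B and RABGGTA were not called. Their log2 fold changes were 0.050 ± 0.11, -0.21 ± 0.14 and 0.28 ± 0.12 (edgeR adjusted p = 0.791, 0.333 and 0.0961). FNTB, a farnesyltransferase subunit, fell, with 9.06, 7.83 and 7.504 CPM with the inhibitor and 14.4, 16.7 and 16.6 CPM with DMSO (log2 fold change -0.96 ± 0.15, edgeR adjusted p = 0.000119). RABGGTB, a subunit of the enzyme that prenylates Rab proteins, rose, with 269, 299 and 307 CPM with the inhibitor and 191, 197 and 191 CPM with DMSO (0.59 ± 0.10, edgeR adjusted p = 0.000187). In the list of SREBP processing and sterol-regulated degradation, 0 of 12 rose and 1 fell (edgeR and DESeq2), with 1 upward and 2 downward at an unadjusted p under 0.05. The gene that fell was UBE2G2, a ubiquitin-conjugating enzyme of endoplasmic reticulum degradation, with 111, 98.8 and 112 CPM with the inhibitor and 183, 203 and 179 CPM with DMSO (-0.81 ± 0.10, edgeR adjusted p = 7.86e-06).

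Of 20 tested genes of fatty acid activation and elongation, none was called by edgeR or DESeq2, and 1 upward and 1 downward had an unadjusted p under 0.05. HACD2, a dehydratase of fatty acid elongation, had the smallest p among them (log2 fold change -0.27 ± 0.10, edgeR adjusted p = 0.0718). Of 17 tested genes of glycerolipid synthesis, 2 rose and 1 fell. LPIN1, a phosphatidate phosphatase, and DGAT2, which makes triglycerides, rose by 0.51 ± 0.14 and 0.52 ± 0.16 on the log2 scale, and ETNK1, an ethanolamine kinase, had a log2 fold change of -0.53 ± 0.14 (edgeR adjusted p = 0.0101, 0.0266 and 0.0092). None of these 3 calls was kept with every library left out in turn, and no gene of the list rose without DMSO replicate 1. Of 22 tested genes of fatty acid oxidation, 3 rose and 1 fell. PPARD, a nuclear receptor for fatty acids, had 154, 169.6 and 136 CPM with the inhibitor and 94.3, 94.0 and 94.4 CPM with DMSO (0.70 ± 0.11, edgeR adjusted p = 6.01e-05), and its call was kept with any 1 library left out. The carnitine palmitoyltransferase genes CPT1B (0.53 ± 0.18, edgeR adjusted p = 0.0443) and CPT2 (0.48 ± 0.13, 0.0135) rose, and HADH, a dehydrogenase of fatty acid oxidation, fell (-0.43 ± 0.13, 0.0246). The highest edgeR adjusted p with 1 library left out was 0.278 for CPT1B, 0.0775 for CPT2 and 0.132 for HADH.

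**Figure D5:**
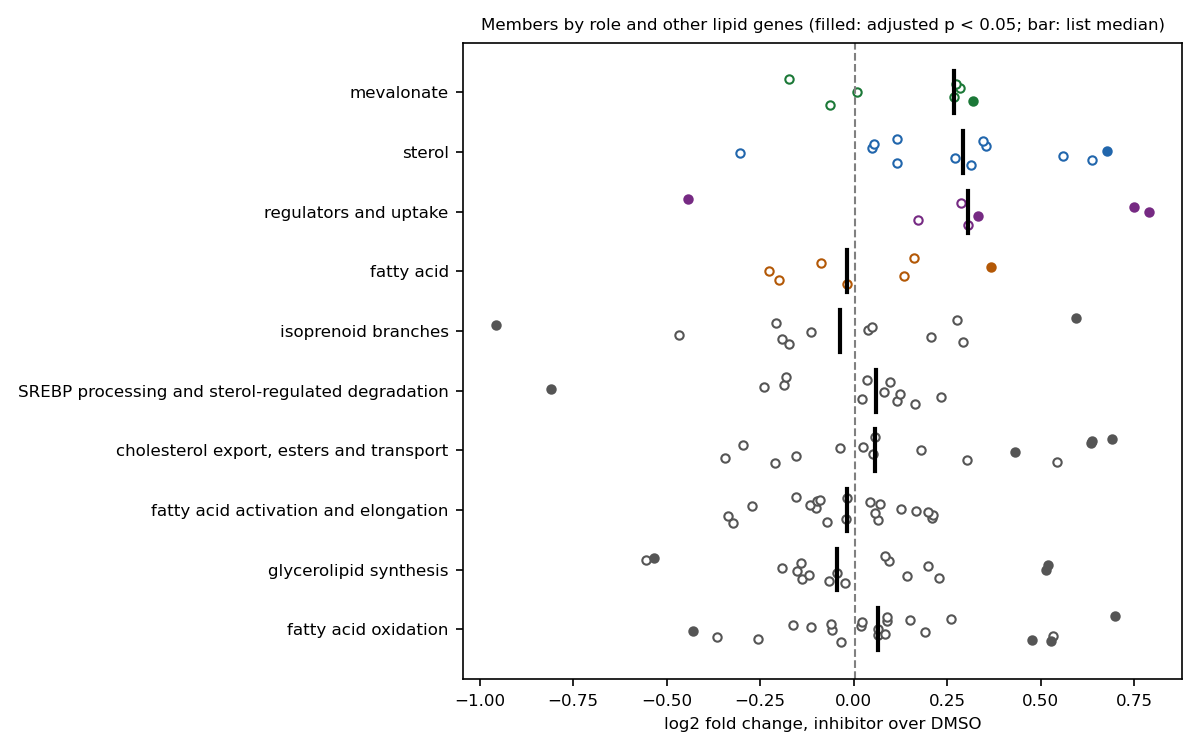
log2 fold change (inhibitor over DMSO) of the members by role (coloured) and of the tested genes of 6 other lipid lists (grey), with filled points for adjusted p under 0.05, a bar at each list's median and a dashed line at the median of all tested genes. The medians of the mevalonate, sterol and regulator genes lie at 0.27, 0.29 and 0.31, and that of the fatty acid enzymes at -0.018.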

How the data were processed

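Libraries were prepared with the Ion AmpliSeq Transcriptome panel (multiplex PCR of a part of each transcript) per the labels' protocols, and read on an Ion Proton. The deposited values are raw counts per gene symbol, 1 table per library. The submitters' processing notes name HTSeq, DESeq2 1.20.0 and hg19, without roles. The aligner, annotation and strand setting were not given in the sources used here. Pseudogene copies or overlapping genes could take or add reads, and 6 members (IDI1, FDPS, CYP51A1, HSD17B7, TMEM97 and SCD) have named pseudogenes in RefSeq, so their values are less certain. Without molecular identifiers, reads copied from the same molecule cannot be told from separate molecules. The PCR error was therefore not measured on its own, and the SEs may cover it only in part.

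The software was edgeR 4.0.16 under R 4.3.3. Its filterByExpr left 11391 genes, holding 99.924% of counts, and TMM factors ran from 0.9735 to 1.047. All of these genes were fitted by the quasi-likelihood test (inhibitor minus DMSO, no covariates) with Benjamini-Hochberg adjustment over all of them. The SE is the log2 fold change over the square root of F. Each library was treated as a replicate, as the series design presents them. Pairs within a group had a chi-square over its degrees of freedom of 9.32 to 14.7, which repeated amplification of 1 RNA could give too. Every member is named; from each other list up to 4 called genes with the largest change and a mean of at least 5 CPM are named or, with no call, the gene with the smallest p. The members and lists were chosen with earlier results of these data known. Alternatives were DESeq2 1.42.0 and its size factors, library totals, no filter beyond 1 count, a minimum of 10 CPM, a replicate block, thinning to the smallest total and leaving out each library. The procedure was also run on simulated data, with changes larger than those of most members. Its recovery of changes as small as theirs was not tested.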

Additional observations from a re-analysis of the deposited data

How the results depend on the processing

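Leaving out 1 library at a time gave 684 to 1133 genes that rose and 721 to 1113 that fell over all genes, the lowest of both without DMSO replicate 2. Of the members, 4 to 8 then rose and 0 to 1 fell, and 0 to 1 mevalonate genes, 1 to 4 sterol genes, 2 to 5 regulator and transport genes and 0 to 1 fatty acid enzymes changed. The 4 sterol genes were counted without inhibitor replicate 1, and the 0 members that fell without DMSO replicate 2. The number of members that fell was 2 with library totals alone, with no filter beyond 1 summed count, with DESeq2, after thinning and with the replicate block. The number of sterol genes changed was 2 with library totals alone, a minimum of 10 CPM, DESeq2 or thinning, and 3 with no filter or the replicate block. With library totals alone 0 mevalonate genes changed, and 831 genes rose and 1714 fell over all genes. With all 6 libraries, the sterol genes called beside MSMO1 in these settings were LBR, FDFT1 or both. Leaving out a library also called HSD17B7 (without inhibitor replicate 1) and SC5D (without inhibitor replicate 3).

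No pairing by replicate number was seen. Deviations of same-numbered libraries from their group means correlated at 0.0317, -0.0166 and 0.00693, and those of differently numbered libraries at -0.0794 to 0.076. How the cultures were handled cannot be read from these values. With the number as a replicate block 7 members rose and 2 fell.

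Some differences close to 0 that were not called changed sign. The log2 fold change of PMVK was -0.062 with library totals alone, -0.0056 with no filter and -0.026 with the replicate block, and from -0.25 to 0.26 with 1 library left out. With library totals alone it was -0.024 for NSDHL and -0.016 for EBP. With 1 library left out it ranged from -0.13 to 0.042 for ACAT2, from -0.058 to 0.17 for NSDHL, from -0.044 to 0.0019 for ACLY and from -0.0051 to 0.26 for FASN. DESeq2, its size factors, the minimum of 10 CPM and thinning kept the direction of each member tested in them, and library totals kept that of the members other than PMVK, NSDHL and EBP. The genes of the other lipid lists were refitted with 1 library left out, an alternative chosen after seeing the data. Depth limits genes with few counts, such as LSS, with 6 to 16 counts per library and an SE of 0.42.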
